A study of Arabidopsis thaliana with 27 samples.

Results

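Loss of HY5 was examined in whole Arabidopsis thaliana seedlings at dawn. The comparison holds 6 of the 27 libraries of the series, 3 of the hy5-215 mutant at ZT0 and 3 of the wild type Col-0 at ZT0, chosen by their genotype and time labels. ZT0 is the moment at which the lights come on, and every plant had stood for a week on MS medium at 22 °C under 8 h of light and 16 h of dark. Total RNA of whole seedlings was sequenced, and reads were counted per gene. Other groups used here as points of comparison, each with 3 libraries at ZT0, are cop1-4, a mutant of the ubiquitin ligase gene COP1, vil1-1, a mutant of the Polycomb-associated gene VIL1, and the double mutant vil1-1 cop1-4. A single hy5 allele was sequenced, at 1 time of day, with no rescued line, and no label tells whether the replicates were grown apart. The p-values therefore speak only of how these libraries spread, which may be technical.

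HY5 is a bZIP transcription factor that promotes seedling development in light. In darkness the COP1-SPA ubiquitin ligase marks the HY5 protein for degradation, and in light COP1 is restrained and HY5 accumulates. HY5 binds DNA elements with an ACGT core, among them the G-box CACGTG, and hy5 mutants are known for long hypocotyls in the light and for low flavonoid pigment.

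Of 21448 genes tested across the 27 libraries with edgeR's quasi-likelihood test, 8369 differed between hy5-215 and Col-0 at an adjusted p under 0.05, which is 39% of the genes. Of these, 4291 (20%) were higher and 4078 (19%) lower in hy5-215, and the median log2 change of all genes was 0.005. A change of at least 2-fold was found for 1007 genes that rose (4.7%) and 503 that fell (2.35%). Each list described below is to be read against these shares: where about 39% of a list passes, its count says nothing particular about the list. Values of the 2 groups did not overlap for 25.3% of the genes in the higher and 24.2% in the lower direction. Levels are given as CPM, the reads of a gene scaled to a common library size, with no correction for gene length. The libraries held 20381971 to 25630178 reads in genes for hy5-215 and 19737975 to 22981839 for Col-0. Replicates of 1 group differed by 4.33 to 5.36 times the sampling noise in hy5-215 and by 2.3 to 3.23 times in Col-0 (chi-square per degree of freedom), so none is a copy of another. The hy5-215 libraries also stood apart in reads that fell outside genes, at 2.16 to 2.89% against 0.979 to 1.12% in Col-0. They were also deposited apart from the rest of the series, and no label gives a batch or date for them. The genotype and a batch of its own therefore cannot be told apart.

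The promoters of 6 genes whose transcripts changed are shown because HY5 is known to bind ACGT cores. These members of the light, pigment, repair, iron and auxin groups illustrate where such letters lie. They were picked without a rule and do not stand for their groups. Each line gives the 300 bases before the annotated gene start, 5′ to 3′ on the gene's own strand, from RefSeq's annotation of TAIR10.1. Capitals mark every ACGT, and a full CACGTG is in capitals throughout.

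HYH, chr3:6023544-6023843, plus strand: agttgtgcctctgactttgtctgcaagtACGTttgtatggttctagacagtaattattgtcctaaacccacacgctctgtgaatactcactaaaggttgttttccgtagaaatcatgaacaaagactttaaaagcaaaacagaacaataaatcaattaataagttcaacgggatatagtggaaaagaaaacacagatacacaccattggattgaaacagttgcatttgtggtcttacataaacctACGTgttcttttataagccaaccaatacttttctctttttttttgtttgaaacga
MYB12, chr2:19476026-19476325, plus strand: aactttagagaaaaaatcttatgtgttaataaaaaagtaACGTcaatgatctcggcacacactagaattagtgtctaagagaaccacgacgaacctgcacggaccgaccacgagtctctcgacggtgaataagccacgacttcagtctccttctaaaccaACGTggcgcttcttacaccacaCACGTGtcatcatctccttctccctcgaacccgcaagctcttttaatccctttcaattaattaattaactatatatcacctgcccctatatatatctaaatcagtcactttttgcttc
CHS, chr5:4488176-4488475, plus strand: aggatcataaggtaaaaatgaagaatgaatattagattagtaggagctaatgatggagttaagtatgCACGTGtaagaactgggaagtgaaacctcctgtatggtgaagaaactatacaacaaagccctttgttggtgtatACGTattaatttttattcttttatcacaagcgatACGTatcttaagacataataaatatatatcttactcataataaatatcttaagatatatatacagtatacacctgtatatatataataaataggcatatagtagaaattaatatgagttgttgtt
UVR2, chr1:4209000-4209299, minus strand: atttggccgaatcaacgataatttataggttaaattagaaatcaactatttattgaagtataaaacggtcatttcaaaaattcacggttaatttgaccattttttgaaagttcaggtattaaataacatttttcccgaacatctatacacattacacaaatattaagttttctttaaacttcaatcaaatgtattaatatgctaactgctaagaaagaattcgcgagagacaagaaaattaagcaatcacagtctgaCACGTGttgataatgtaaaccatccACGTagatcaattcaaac
OPT3, chr4:9250344-9250643, minus strand: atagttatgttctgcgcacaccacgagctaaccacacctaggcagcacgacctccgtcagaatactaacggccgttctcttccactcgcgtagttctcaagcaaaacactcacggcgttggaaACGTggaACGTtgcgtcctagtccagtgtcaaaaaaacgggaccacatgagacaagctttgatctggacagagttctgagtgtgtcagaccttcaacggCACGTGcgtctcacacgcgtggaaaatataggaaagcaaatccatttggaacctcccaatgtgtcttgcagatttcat
IAA19, chr3:5263701-5264000, plus strand: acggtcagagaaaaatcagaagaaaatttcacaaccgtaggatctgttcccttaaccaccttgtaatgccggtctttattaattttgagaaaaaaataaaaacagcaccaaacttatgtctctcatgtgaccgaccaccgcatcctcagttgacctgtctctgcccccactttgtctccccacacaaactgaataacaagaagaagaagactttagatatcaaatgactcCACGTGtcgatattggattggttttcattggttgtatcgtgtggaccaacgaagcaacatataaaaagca

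HYH, with 2 ACGT cores and no CACGTG, MYB12, CHS, UVR2 and OPT3 all fell in hy5-215, and IAA19, which holds a CACGTG as well, rose. The motif was searched as CACGTG, which reads the same on both strands and contains ACGT. Among the windows of 20709 tested protein-coding genes, 8.08% held CACGTG and 49.6% held ACGT. For genes called lower at least 2-fold in hy5-215 the shares were 7.72% and 54.7% of 479 windows, and for genes called higher at least 2-fold they were 13% and 57.1% of 746 windows. On the iron list, 27.6% of 29 windows held CACGTG and 86.2% held ACGT. On the list of expansins and xyloglucan-modifying enzymes, 0% of 19 windows held CACGTG and 26.3% held ACGT. On the auxin list the shares were 4.65% and 37.2% of 43 windows, and on the antenna list 21.4% and 57.1% of 42. The early flavonoid list gave 21.1% and 57.9% of 19 windows, and the photoprotection list 15.8% and 63.2% of 19. For the HY5 and COP1-SPA list they were 6.25% and 75% of 16. A match in these letters is a description of the sequence and not a measured binding site.

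HY5's closest relative and much of the COP1-SPA machinery were lower in the mutant. HY5 itself had 14.6, 14.4 and 14.6 CPM in hy5-215, against 18.8, 19.8 and 17.9 CPM in Col-0. The groups did not overlap, and the mutant libraries were lower (log2 change −0.37, SE 0.090, edgeR adjusted p = 0.000847). The message was still read in all of them, so its level does not check the genotype label. HYH, the bZIP factor most similar to HY5, had 12.1, 11.8 and 15.8 CPM in hy5-215, against 37.4, 34.6 and 34 CPM in Col-0. This was the largest drop on the HY5 and COP1-SPA list (log2 change −1.42, SE 0.085, edgeR adjusted p = 8.77e-18). COP1 was lower by a small margin, with 29.1, 28.6 and 28.4 CPM in hy5-215, against 33.4, 36 and 33.6 CPM in Col-0 (log2 change −0.26, SE 0.074, edgeR adjusted p = 0.00477). Of the 16 genes on that list, all tested, 9 fell and 2 rose, with a median log2 change of −0.23. Those that fell included the COP1 partners SPA1 (log2 change −0.39), SPA3 (log2 change −0.41) and SPA4 (log2 change −0.50). The 2 that rose were PAR1 and PAR2, small helix-loop-helix proteins that restrain shade responses. PAR1 had 44.4, 52.5 and 48.6 CPM in hy5-215, against 23.5, 20.3 and 21.4 CPM in Col-0 (log2 change 1.16, SE 0.094, edgeR adjusted p = 2.12e-13), and PAR2 followed at log2 change 0.90.

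**Figure D1:**
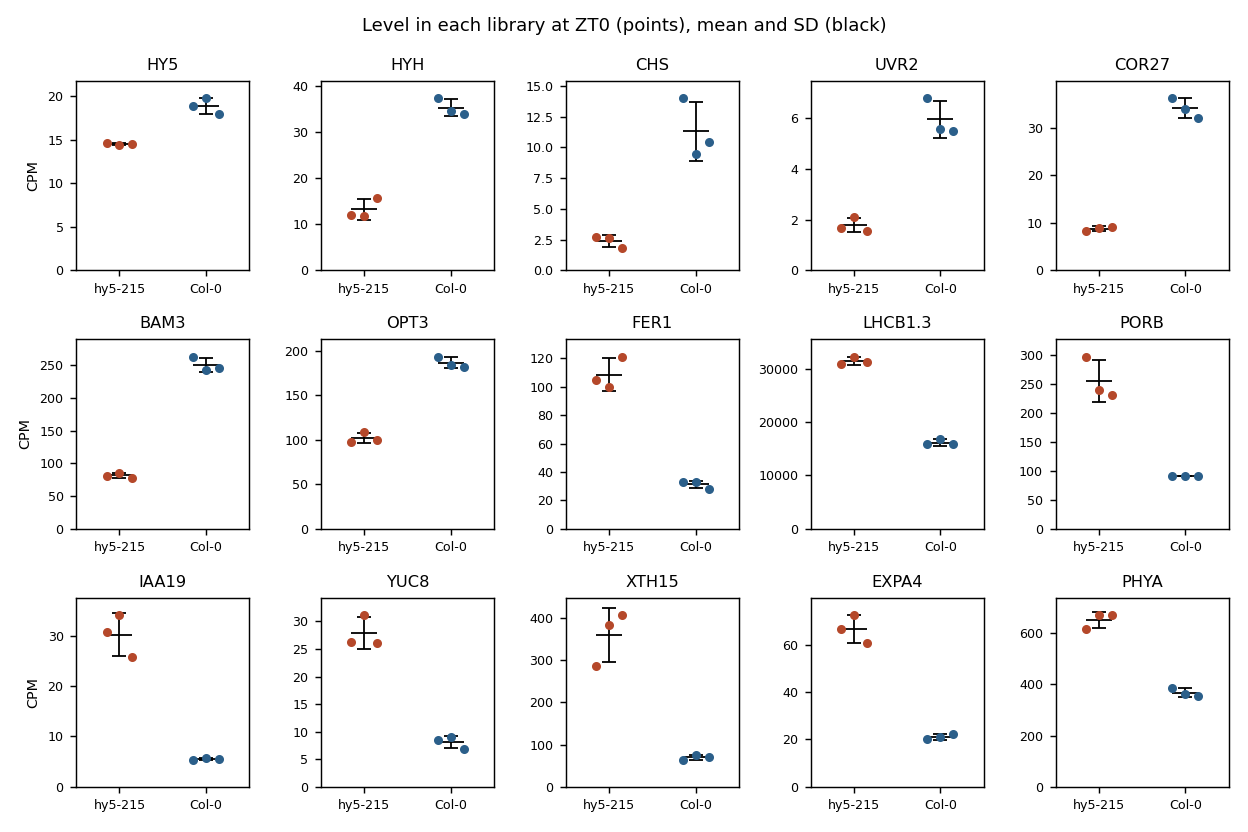
Level in CPM (linear axes from 0) of 15 genes in each library, with hy5-215 at ZT0 on the left and Col-0 at ZT0 on the right of each panel. Points are libraries, and the black mark and bar are the mean and SD of 3 libraries. In all 15 panels the 2 groups are separate, with HYH, CHS, UVR2, COR27, BAM3 and OPT3 low and PORB, IAA19, YUC8, XTH15, EXPA4 and FER1 high in hy5-215.

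Among the light receptors, phytochrome A and its helper stood higher in hy5-215. Of 19 receptor genes and regulators, 9 rose and 3 fell, with a median log2 change of 0.15. PHYA, the far-red light receptor, had 617, 671 and 669 CPM in hy5-215, against 386, 364 and 353 CPM in Col-0 (log2 change 0.83, SE 0.059, edgeR adjusted p = 2.45e-15). FHL, which carries phytochrome A into the nucleus, had 9.39, 12.6 and 10.5 CPM in hy5-215, against 2.99, 2.58 and 3.05 CPM in Col-0 (log2 change 1.91, SE 0.19, edgeR adjusted p = 5.04e-11). The blue light receptors PHOT1 (log2 change 0.57) and CRY2 (log2 change 0.31) also rose. RUP2, a repressor of the UV-B receptor, fell (10.3 ± 0.48 CPM in hy5-215 and 16.1 ± 0.492 CPM in Col-0, log2 change −0.65, SE 0.088, edgeR adjusted p = 9.74e-08), as did CRY3, a cryptochrome of the DASH type (log2 change −0.61). On the list of B-box factors, zinc-finger proteins that act with HY5, 3 of 12 tested genes rose and 4 fell. BBX28 rose most firmly (68.9 ± 0.612 CPM in hy5-215 and 45.6 ± 1.26 CPM in Col-0, log2 change 0.60), BBX21 rose by less (log2 change 0.25), and BBX32 fell (log2 change −0.84).

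At the entry to flavonoid synthesis the gene CHS and its regulator MYB12 were lower in hy5-215, both at low levels. CHS, chalcone synthase, the entry enzyme, had 2.7, 2.66 and 1.86 CPM in hy5-215, against 14, 9.47 and 10.5 CPM in Col-0. Each hy5-215 value lay below each Col-0 value, a 4.7-fold lower mean on the fitted scale (log2 change −2.23, SE 0.29, edgeR adjusted p = 4.1e-06). MYB12, the MYB factor that activates flavonol genes, had 0.216, 0.0467 and 0.216 CPM in hy5-215, against 0.897, 1.29 and 0.968 CPM in Col-0 (log2 change −2.62, SE 0.43, edgeR adjusted p = 3.15e-06). In all, 5 of the 19 tested genes of the early list fell and 2 rose, a share of calls near the 39% of all genes. Also lower were PAL2, a phenylalanine ammonia-lyase (log2 change −0.64), and the flavonoid glucosyltransferase UGT78D2 (log2 change −0.73). CHI, chalcone isomerase, had 9.82, 9.29 and 8.76 CPM in hy5-215, against 12.5, 8.87 and 9.38 CPM in Col-0, with overlapping groups, and FLS1, flavonol synthase, had 1.11, 0.98 and 1.21 CPM in hy5-215, against 1.34, 0.775 and 1.75 CPM in Col-0, also overlapping. F3H could hardly be read at this depth, with at most 0.0863 CPM in hy5-215 and 0.301 CPM in Col-0. Higher were the methyltransferase gene OMT1 (log2 change 0.47) and the rhamnose synthase gene RHM1 (log2 change 0.21). On the list of late anthocyanin genes and their regulators, 3 of 19 fell and 4 rose, again a share of calls near 39%. GL3, a helix-loop-helix partner of the pigment and trichome MYB factors, fell (0.406 ± 0.152 CPM in hy5-215 and 1.2 ± 0.25 CPM in Col-0, log2 change −1.54, SE 0.33, edgeR adjusted p = 0.000234). DFR, the first enzyme specific to anthocyanins, rose on the fitted scale (log2 change 3.01, SE 0.65, edgeR adjusted p = 0.000247), yet it had 0.504, 0.42 and 0.432 CPM in hy5-215, against 0.0747, 0.043 and 0.0372 CPM in Col-0, levels at which each library gave only a few reads in Col-0.

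Genes of DNA repair and photoprotection were mostly lower in hy5-215, with 11 of 19 lower, 2 higher and a median log2 change of −0.17. The 2 higher became 1 without replicate 1 of hy5-215 or without replicate 1 or 3 of Col-0, and 0 without replicate 3 of hy5-215. UVR2, the photolyase that reverses cyclobutane pyrimidine dimers in DNA, had 1.69, 2.1 and 1.55 CPM in hy5-215, against 6.8, 5.6 and 5.51 CPM in Col-0 (log2 change −1.75, SE 0.18, edgeR adjusted p = 6.15e-11). UVR3, the photolyase for the 6-4 photoproduct, had 12.5, 16.4 and 18.9 CPM in hy5-215, against 34.1, 30.1 and 29.4 CPM in Col-0 (log2 change −0.98, SE 0.12, edgeR adjusted p = 9.93e-07). Both repair enzymes were thus lower in each of the 3 mutant libraries than in any wild-type library. SIG5, a sigma factor that carries light signals to chloroplast transcription, had 40.2 ± 1.77 CPM in hy5-215 and 67.5 ± 1.8 CPM in Col-0 (log2 change −0.75, SE 0.067, edgeR adjusted p = 2.29e-12). NPQ1, violaxanthin de-epoxidase of the xanthophyll cycle, had 26.6 ± 0.789 CPM in hy5-215 and 41.6 ± 2.56 CPM in Col-0 (log2 change −0.65, SE 0.071, edgeR adjusted p = 5.52e-10). The early light-induced gene ELIP1 had 1.19, 1.49 and 0.345 CPM in hy5-215, against 0.934, 1.25 and 0.409 CPM in Col-0, so its groups overlapped. ELIP2 had 1.15, 0.887 and 0.863 CPM in hy5-215, against 0.374, 0.473 and 0.744 CPM in Col-0 and did not pass the test (edgeR adjusted p = 0.0986).

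In contrast to the repair genes, nuclear genes for the light-harvesting antenna and both photosystems rose almost as a block. Of 42 such genes, 39 rose and 2 fell, against 20% and 19% of all genes, with a median log2 change of 0.61, and their summed level was 133500 ± 5049 CPM in hy5-215 and 75580 ± 1490 CPM in Col-0 (SD, n = 3 each). LHCB1.3, an antenna protein of photosystem II, had 30950, 32390 and 31410 CPM in hy5-215, against 15860, 16910 and 15840 CPM in Col-0 (log2 change 0.96, SE 0.072, edgeR adjusted p = 1.11e-14). LHCA1, an antenna protein of photosystem I, had 3191, 3315 and 2965 CPM in hy5-215, against 1454, 1439 and 1463 CPM in Col-0 (log2 change 1.12, SE 0.063, edgeR adjusted p = 1.26e-18). LHCA4 had 5215, 5594 and 4967 CPM in hy5-215, against 2550, 2554 and 2440 CPM in Col-0 (log2 change 1.06, SE 0.070, edgeR adjusted p = 5.02e-16). The summed level of antenna and photosystem genes in CPM was thus far higher in the mutant, and each of these 3 genes was higher in every mutant library. The 2 that fell, LHCB7 (log2 change −0.41) and LHCA5 (log2 change −0.22), are minor antenna members. Reads that fit several of the nearly identical LHCB1 copies may have been set aside with the reads at several sites, so single LHCB1 values are uncertain. Reads at several sites made up 4.32 to 5.42% in hy5-215 and 3.18 to 3.54% in Col-0. With vil1-1 in place of Col-0, 39 rose and 2 fell as well. The 73 protein-coding genes read above 1000 CPM had a median log2 change of 0.18, and the 176 genes with at most 500 bases of exon one of 0.17. The part of level and length in the antenna result was not tested.

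Genes of the Calvin cycle did not follow the antenna. Of 13, 7 fell and 1 rose. RBCS1B, a small subunit of Rubisco, had 772, 825 and 765 CPM in hy5-215, against 1384, 1312 and 1334 CPM in Col-0 (log2 change −0.77, SE 0.059, edgeR adjusted p = 2.52e-14), while RBCS3B, a near-identical copy, had 2864, 3026 and 2887 CPM in hy5-215, against 2234, 2068 and 2082 CPM in Col-0 (log2 change 0.46, SE 0.062, edgeR adjusted p = 8.57e-08). Copies of Rubisco's small subunit share sequence, so reads may be set aside or assigned to the wrong one. FBA1, a chloroplast aldolase, fell (log2 change −0.42), as did CP12-2, which ties enzymes of the cycle together (log2 change −0.64), and RCA, Rubisco activase, had 5454 ± 284 CPM in hy5-215 and 5321 ± 138 CPM in Col-0 and did not pass (log2 change 0.04).

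Chlorophyll synthesis rose at its light-dependent step. Of 24 genes, 14 rose and 4 fell, with a median of 0.18. PORB, a protochlorophyllide oxidoreductase, which makes chlorophyllide in light, had 298, 239 and 231 CPM in hy5-215, against 91.1, 91.7 and 90.8 CPM in Col-0 (log2 change 1.49, SE 0.077, edgeR adjusted p = 5.51e-17). PORA, the form known from seedlings that have not yet seen light, had 99.9, 39.2 and 54.9 CPM in hy5-215, against 0.486, 0.473 and 0.484 CPM in Col-0 (log2 change 7.06, SE 0.83, edgeR adjusted p = 6.09e-06). PORA thus lay at 0.473 to 0.486 CPM in the Col-0 libraries and varied among the mutant libraries, with replicate 1 highest. PORC rose less (log2 change 0.51). HEMA1, which starts the pathway, rose (576 ± 8.48 CPM in hy5-215 and 438 ± 4.72 CPM in Col-0, log2 change 0.40), and HEMA2 fell (log2 change −0.38). CGA1, a GATA factor that promotes chloroplast growth, fell (5.66 ± 0.444 CPM in hy5-215 and 13 ± 1.2 CPM in Col-0, log2 change −1.20, SE 0.14, edgeR adjusted p = 8.2e-09), and CHLG, chlorophyll synthase, fell by less (log2 change −0.46). In the carotenoid pathway 6 of 15 rose and 4 fell, led by the entry enzyme DXS (log2 change 0.48) and by CYP97A3, a hydroxylase that fell (log2 change −0.57).

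**Figure D2:**
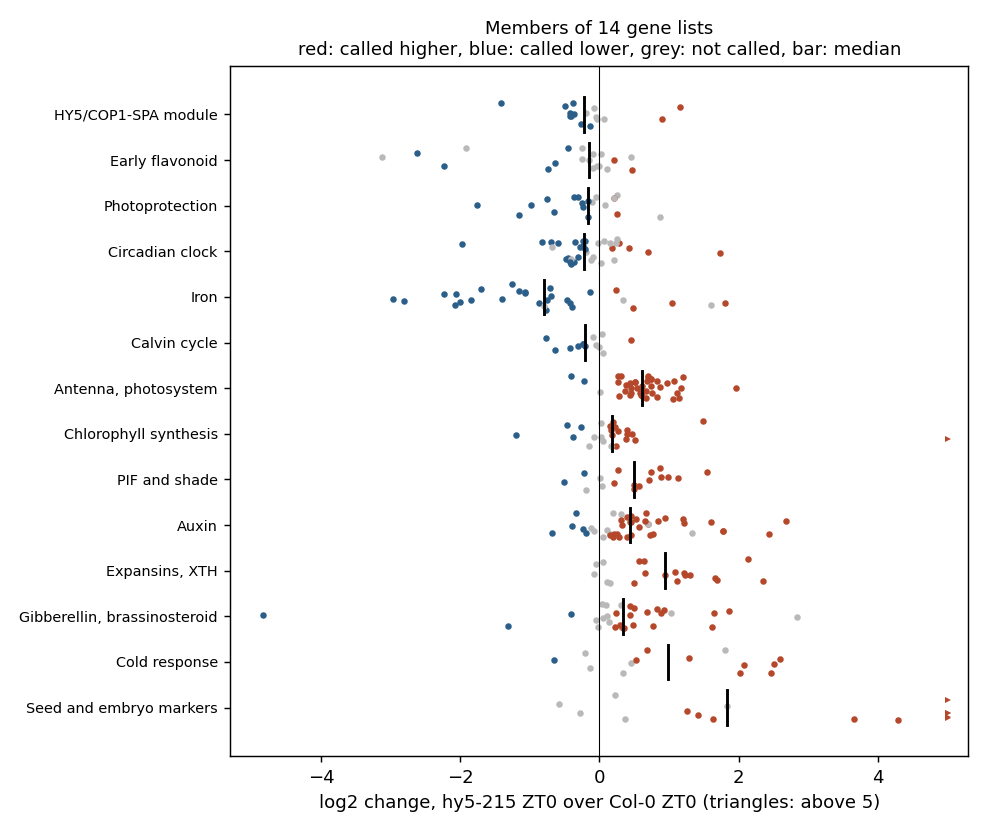
Log2 change of each tested member of 14 gene lists, hy5-215 ZT0 over Col-0 ZT0, with red points called higher, blue points called lower, grey points not called, and a black bar at each list's median. Triangles at the right edge are members above 5. The antenna, auxin and expansin lists lie mostly right of 0, with medians of 0.61, 0.44 and 0.94, and the iron list mostly left, with a median of −0.80.

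Genes of elongation growth were high in hy5-215. PIF factors are helix-loop-helix proteins that promote elongation and are degraded in light, and auxin made by YUC enzymes loosens walls through expansins and xyloglucan endotransglucosylases (XTH). Of 17 PIF and shade regulators, 12 rose and 2 fell, with a median log2 change of 0.50, and 1 fell without replicate 3 of hy5-215. PIF3 had 40.6, 41.6 and 46.2 CPM in hy5-215, against 25.9, 25.1 and 27.2 CPM in Col-0 (log2 change 0.71, SE 0.066, edgeR adjusted p = 6.14e-12). HAT2, a homeodomain factor of shade responses, had 48.1 ± 1.61 CPM in hy5-215 and 26.1 ± 0.997 CPM in Col-0 (log2 change 0.88, SE 0.078, edgeR adjusted p = 2.06e-12), and PKS4, a phytochrome kinase substrate, had 52.4 ± 6.96 CPM in hy5-215 and 28.7 ± 0.241 CPM in Col-0 (log2 change 0.87, SE 0.073, edgeR adjusted p = 4.73e-13). PIF5 had 159 ± 4.97 CPM in hy5-215 and 155 ± 9.07 CPM in Col-0 and PIF7 5.76 ± 0.792 CPM in hy5-215 and 5.67 ± 0.312 CPM in Col-0, and neither passed. UNE10, a relative of the PIF factors, was among those that fell (log2 change −0.51).

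The auxin list gave 29 rises and 5 falls among 43 genes, with a median log2 change of 0.44. YUC8, which makes auxin, had 26.4, 31.2 and 26.1 CPM in hy5-215, against 8.48, 9.04 and 6.85 CPM in Col-0 (log2 change 1.78, SE 0.13, edgeR adjusted p = 9.44e-15). IAA19, an early auxin-response repressor, had 30.8, 34.2 and 25.8 CPM in hy5-215, against 5.42, 5.73 and 5.55 CPM in Col-0 (log2 change 2.44, SE 0.15, edgeR adjusted p = 7.48e-16). Each mutant value of IAA19 was well above the wild-type range. IAA29, another early response gene, had 58.2, 63.1 and 51.5 CPM in hy5-215, against 26.4, 22.2 and 26.5 CPM in Col-0 (log2 change 1.199, SE 0.086, edgeR adjusted p = 4.23e-15). IAA7 (log2 change 1.21) and the auxin-conjugating enzyme gene GH3.5 (log2 change 0.76) rose too. SAUR14 was the firmest of those that fell (13.2 ± 1.35 CPM in hy5-215 and 21.1 ± 1.63 CPM in Col-0, log2 change −0.68, SE 0.089, edgeR adjusted p = 3.74e-08), followed by SAUR16 (log2 change −0.39) and the repressor gene IAA14 (log2 change −0.34). The remaining 2 of the falls were TAA1 and GH3.17, and the falls numbered 3 without replicate 1 of hy5-215 or without replicate 3 of Col-0. TAA1 barely passed (log2 change −0.235, edgeR adjusted p = 0.0491). It lost its call under most alternative settings, among them a replicate block, no low-count filter and the compared groups fitted alone.

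Wall-loosening genes moved in 1 direction where they moved. Of 19 expansin and XTH genes, 14 rose and none fell, and 5 did not pass, with a median of 0.94, against 20% of all genes rising. XTH15 had 286, 384 and 407 CPM in hy5-215, against 64.4, 76 and 70.5 CPM in Col-0 (log2 change 2.35, SE 0.11, edgeR adjusted p = 3.16e-13). EXPA4 had 66.7, 72.6 and 60.7 CPM in hy5-215, against 20, 21.1 and 22.4 CPM in Col-0 (log2 change 1.66, SE 0.085, edgeR adjusted p = 8.81e-18). EXPA3, EXPA5 and EXPA11 rose by log2 changes of 1.12, 1.22 and 1.297. The highest Col-0 value of each lay below the lowest hy5-215 value. Their summed level over the list was 2426 ± 148.6 CPM in hy5-215 and 1332 ± 38.57 CPM in Col-0.

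Gibberellin and brassinosteroid genes rose in 17 of 31 cases and fell in 3. GASA4, a small gibberellin-induced peptide, had 281, 221 and 257 CPM in hy5-215, against 70.5, 72.9 and 66.5 CPM in Col-0 (log2 change 1.86, SE 0.073, edgeR adjusted p = 1.39e-20). The growth repressors GAI (log2 change 0.49) and RGA (log2 change 0.35), GA2OX6, which inactivates gibberellin (log2 change 0.89), and BR6OX2, the last step of brassinosteroid synthesis (log2 change 0.93), all rose, and BES1, a factor of the brassinosteroid response, fell (log2 change −0.41). BSU1, a phosphatase of the brassinosteroid pathway, had 0.396, 0.467 and 0.389 CPM in hy5-215, against 12.5, 10.9 and 12.5 CPM in Col-0, the largest fall among genes that have a symbol, a mean of at least 5 CPM and groups that do not overlap (log2 change −4.83, SE 0.23, edgeR adjusted p = 1.94e-21). BSU1 was also low in other lines of the series, at a mean of 0.634 CPM in vil1-1 and 1.19 CPM in cop1-4, with 8.85 CPM in vil1-1 cop1-4, so its low level did not set hy5-215 apart. On the cytokinin and ethylene list 7 of 26 rose and 6 fell. CKX4, which degrades cytokinin, fell (1.58 ± 0.257 CPM in hy5-215 and 4.2 ± 0.346 CPM in Col-0, log2 change −1.42), as did the cytokinin response regulator ARR4 (log2 change −0.68), and ACS8, which makes the ethylene precursor, rose (7.84 ± 1.09 CPM in hy5-215 and 2.7 ± 0.714 CPM in Col-0, log2 change 1.54).

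The clock list leaned downward, with 17 of 34 genes lower and 5 higher and a median of −0.23. COR27, a light- and cold-regulated clock component, had 8.2, 8.96 and 9.11 CPM in hy5-215, against 36.3, 34.1 and 32.2 CPM in Col-0 (log2 change −1.97, SE 0.12, edgeR adjusted p = 2.22e-13). Morning MYB factors were lower as well. CCA1 had 247, 256 and 259.6 CPM in hy5-215, against 357, 348 and 356 CPM in Col-0 (log2 change −0.47, SE 0.060, edgeR adjusted p = 2.05e-08). RVE1, which links the clock to auxin, had 122 ± 3.92 CPM in hy5-215 and 216 ± 4.65 CPM in Col-0 (log2 change −0.82, SE 0.072, edgeR adjusted p = 4.23e-11), and RVE2 had 76.4 ± 2.78 CPM in hy5-215 and 123 ± 5.76 CPM in Col-0 (log2 change −0.69, SE 0.078, edgeR adjusted p = 1.64e-08). In opposition to these, PRR7, a repressor of the morning genes, rose (37.9 ± 3.8 CPM in hy5-215 and 28.2 ± 1.13 CPM in Col-0, log2 change 0.43, SE 0.082, edgeR adjusted p = 7.75e-05), and GI, a clock gene of the evening, rose too (4.99 ± 0.657 CPM in hy5-215 and 3.09 ± 0.753 CPM in Col-0, log2 change 0.70, SE 0.16, edgeR adjusted p = 0.000614). The 5 rises numbered 3 without replicate 2 or 3 of Col-0 or without replicate 3 of hy5-215. TOC1 had 18.4, 18.7 and 18.6 CPM in hy5-215, against 19.4, 21 and 20 CPM in Col-0 and did not pass (edgeR adjusted p = 0.187). All samples were taken at 1 time, so a shift in phase and a change in level cannot be told apart.

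Flowering genes split evenly, with 5 higher and 5 lower of 21 tested, near the 20% and 19% of all genes. The count thus says nothing particular about the list. The rises numbered 3 without replicate 1 of hy5-215, without replicate 1 or 3 of Col-0, and when the compared groups were fitted alone. FLC, the vernalisation-controlled repressor of flowering, had 7.05, 7.61 and 7.6 CPM in hy5-215, against 14.3, 12.5 and 14.6 CPM in Col-0 (log2 change −0.90, SE 0.10, edgeR adjusted p = 9.64e-10). In vil1-1 FLC averaged 22.5 CPM. SOC1, which promotes flowering, rose (5.28 ± 0.512 CPM in hy5-215 and 2.92 ± 0.593 CPM in Col-0, log2 change 0.86, SE 0.14, edgeR adjusted p = 4.25e-06), SPL3 fell (3.49 ± 0.578 CPM in hy5-215 and 6.99 ± 0.756 CPM in Col-0, log2 change −1.01, SE 0.17, edgeR adjusted p = 6.6e-06), and TEM1 and TOE2, 2 repressors, rose (log2 change 0.67 and log2 change 0.54). Of 20 Polycomb and histone H3K27 demethylase genes, 5 fell and 1 rose, a smaller share of calls than the 39% of all genes. The rises numbered 0 without replicate 3 of hy5-215, and 3 when the compared groups were fitted alone. JMJ30, a demethylase under clock control, fell most (13.7 ± 1.25 CPM in hy5-215 and 28 ± 0.382 CPM in Col-0, log2 change −1.03, SE 0.087, edgeR adjusted p = 5.51e-13), and CLF, a Polycomb methyltransferase, fell by less (log2 change −0.46).

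Most genes of iron acquisition fell. Of the 29 genes on the iron list 22 fell, 13 of them at least 2-fold, against 19% and 2.35% of all genes, and 4 rose. The median log2 change was −0.80. IRT1, the root iron transporter, had 10.5, 11.1 and 2.72 CPM in hy5-215, against 69.4, 62.5 and 58.9 CPM in Col-0 (log2 change −2.96, SE 0.36, edgeR adjusted p = 2.01e-06). FRO2, the ferric reductase of the root surface, had 8.02, 8.12 and 2.59 CPM in hy5-215, against 32.5, 30.5 and 25.2 CPM in Col-0 (log2 change −2.23, SE 0.33, edgeR adjusted p = 2.16e-05). In both, replicate 3 of hy5-215 was well below the other two, and every mutant value was below every wild-type value. OPT3, an iron transporter of the phloem, had 97.7, 109 and 99.5 CPM in hy5-215, against 193, 184 and 182 CPM in Col-0 (log2 change −0.87, SE 0.089, edgeR adjusted p = 1.82e-08), and the chloroplast ferric reductase FRO7 had 19.8 ± 1.95 CPM in hy5-215 and 41.3 ± 2.22 CPM in Col-0 (log2 change −1.06, SE 0.081, edgeR adjusted p = 2.96e-13). BHLH101, a factor that switches on iron uptake, had 1.64 ± 0.662 CPM in hy5-215 and 5.97 ± 0.749 CPM in Col-0 (log2 change −1.84, SE 0.25, edgeR adjusted p = 1.2e-07). The 4 that rose were 3 ferritins, which store iron, and AHA2, a proton pump of the plasma membrane (log2 change 0.24). FER1, a ferritin, had 105, 99.6 and 121 CPM in hy5-215, against 32.6, 32.8 and 27.9 CPM in Col-0 (log2 change 1.805, SE 0.12, edgeR adjusted p = 1.81e-10), FER4 rose (20.8 ± 1.82 CPM in hy5-215 and 10.1 ± 1.3 CPM in Col-0, log2 change 1.05) and FER3 rose by less (log2 change 0.48). CYP82C4, a cytochrome P450 on the iron-deficiency response, fell with uneven values, 1.33, 3.31 and 0.0432 CPM in hy5-215, against 11.7, 8.52 and 7.52 CPM in Col-0. It lost its call when hy5-215 and Col-0 were fitted alone (log2 change −2.60, edgeR adjusted p = 0.0622).

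On the other nutrient lists smaller shares of the genes passed the test. On the nitrogen list 9 of 21 tested genes rose and 3 fell. NIA2, nitrate reductase, had 2043, 2214 and 2712 CPM in hy5-215, against 4027, 3647 and 3564 CPM in Col-0 (log2 change −0.69, SE 0.074, edgeR adjusted p = 1.41e-09), and BT1, a BTB-TAZ domain protein, fell (149 ± 32.9 CPM in hy5-215 and 253 ± 17.2 CPM in Col-0, log2 change −0.76). The nitrate transporter NRT1.1 rose (151 ± 15.1 CPM in hy5-215 and 107 ± 3.87 CPM in Col-0, log2 change 0.49). NRT2.1, a high-affinity nitrate transporter, had 0.935, 0.653 and 0.475 CPM in hy5-215, against 0, 0.043 and 0 CPM in Col-0, and the ratio of its reads over the 3 libraries of each group was 54.1 (95% exact interval 9.29 to 2180), counting error only. The rises on the nitrogen list numbered 4 without replicate 2 of Col-0 and 5 without replicate 3 of Col-0 or replicate 2 or 3 of hy5-215, and the falls numbered 5 when the compared groups were fitted alone. On the copper list 5 of 16 rose and 5 fell. FSD1, the iron superoxide dismutase that is made when copper is short, had 985, 1088 and 1023 CPM in hy5-215, against 455, 479 and 448 CPM in Col-0 (log2 change 1.16, SE 0.058, edgeR adjusted p = 1.42e-20), and CCS, the chaperone of the copper enzymes, fell (42.7 ± 3.05 CPM in hy5-215 and 73.3 ± 2.45 CPM in Col-0, log2 change −0.78). The phosphate list gave 4 rises among 18 genes and the sulfate list 4 among 17, near the 20% of all genes. Each of these counts was 2 without replicate 1 of hy5-215 or replicate 1 of Col-0. Of 30 glucosinolate genes 7 fell and 1 rose, a smaller share of calls than the 39% of all genes. The rise was lost without replicate 2 or 3 of hy5-215 or of Col-0. MAM1, which lengthens their methionine side chain, had 0.899, 2.43 and 0.604 CPM in hy5-215, against 7.43, 8.48 and 8.9 CPM in Col-0 (log2 change −2.71, SE 0.37, edgeR adjusted p = 7.65e-06), but vil1-1 averaged only 0.746 CPM.

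Most starch genes changed, in both directions. BAM3, the beta-amylase that breaks down starch at night, had 80.7, 85.3 and 78 CPM in hy5-215, against 263, 244 and 245 CPM in Col-0 (log2 change −1.62, SE 0.069, edgeR adjusted p = 1.46e-21). APL3, a subunit of the starch-making enzyme, had 10.2, 11.8 and 8.85 CPM in hy5-215, against 2.8, 1.89 and 2.68 CPM in Col-0 (log2 change 2.05, SE 0.15, edgeR adjusted p = 1.35e-14). On the starch list 9 of 16 rose and 4 fell, QQS by the largest log2 change (9.11 ± 2.4 CPM in hy5-215 and 0.383 ± 0.146 CPM in Col-0, log2 change 4.54), although QQS averaged 32.8 CPM in vil1-1. Of 23 low-energy and sugar-starvation genes, 11 rose and 2 fell, or 1 without replicate 3 of hy5-215 or replicate 2 of Col-0. The sucrose carrier SUC2 (log2 change 0.51) and the trehalose-phosphate synthase gene TPS11 (log2 change 0.52) rose, and SWEET11, a sucrose exporter, fell (log2 change −0.52). Cold-response genes rose in 8 of 14 cases and fell in 1, with a median of 0.99. That median ran from 0.679 to 1.227 over the alternative settings. RD29A, a marker of cold and drought, had 35.4, 40.7 and 27.1 CPM in hy5-215, against 5.83, 5.51 and 6.7 CPM in Col-0 (log2 change 2.51, SE 0.18, edgeR adjusted p = 8.92e-10), and COR413IM1, a chloroplast membrane protein, had 33.9 ± 4.11 CPM in hy5-215 and 13.8 ± 1.79 CPM in Col-0 (log2 change 1.29, SE 0.11, edgeR adjusted p = 3.55e-11). Their upstream factor CBF2 had 1.62, 1.49 and 1.9 CPM in hy5-215, against 1.34, 1.46 and 0.856 CPM in Col-0 and did not pass (edgeR adjusted p = 0.163). Of 23 defence genes 3 rose and 5 fell, PAD4 (log2 change −0.83) and WRKY70 (log2 change −0.89) of the salicylate pathway among them. The share of calls on that list was near the 39% of all genes. The falls numbered 2 without replicate 1 of hy5-215 or of Col-0, and 3 without replicate 2 of either, and the rises numbered 5 when the compared groups were fitted alone.

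Seed and oil-mobilisation transcripts were high in hy5-215. Of 21 seed and embryo markers, 6 had too few reads to be tested, and of the other 15, 10 rose, all of them at least 2-fold. Markers almost unread in Col-0 could enter the test only through other groups, such as hy5-215, so this count is a description. CRA1, a cruciferin storage protein, had 79.1, 97.9 and 81.7 CPM in hy5-215, against 0.149, 0.258 and 0.893 CPM in Col-0 (log2 change 7.59, SE 0.51, edgeR adjusted p = 4.36e-10). CRC, another cruciferin, had 19, 25.5 and 24.9 CPM in hy5-215, against 0.112, 0 and 0 CPM in Col-0, and the ratio of its reads over the 3 libraries of each group was 584 (95% exact interval 199.6 to 2836). OLE1, an oil-body protein, had 9.93, 6.49 and 10.6 CPM in hy5-215, against 0.486, 0.344 and 1.27 CPM in Col-0 (log2 change 3.65, SE 0.35, edgeR adjusted p = 9.61e-10). EM1, a late embryogenesis protein, had 18.5, 6.86 and 9.06 CPM in hy5-215, against 0.374, 0.646 and 0.744 CPM in Col-0 (log2 change 4.29). Storage-protein transcripts were thus present in all 3 mutant libraries and close to 0 in Col-0. ICL, isocitrate lyase, an enzyme that turns seed oil into sugar, had 1550, 758 and 1200 CPM in hy5-215, against 71.8, 91.9 and 99.7 CPM in Col-0 (log2 change 3.74, SE 0.25, edgeR adjusted p = 4.3e-10). Malate synthase, MLS, had 219, 76.8 and 164 CPM in hy5-215, against 26.7, 28.9 and 32.5 CPM in Col-0 (log2 change 2.39, SE 0.26, edgeR adjusted p = 4.98e-07). PCK1, the other gene of the oil list, rose by less. Its call was lost without replicate 1 or 3 of hy5-215 or replicate 1 of Col-0. It was also lost with the compared groups fitted alone (log2 change 0.256, edgeR adjusted p = 0.185). Against vil1-1, 2 of the 3 oil genes were higher and 1 was lower. Replicate 2 of hy5-215 was the lowest for ICL, MLS and PORA alike, and replicate 1 the highest. Summed over the seed list, the level was 287.7 to 340.2 CPM in hy5-215 and 112.9 to 186.7 CPM in Col-0, and over the oil list 1182 to 2241 CPM in hy5-215 and 433.7 to 484.1 CPM in Col-0. The part of this shift in the other results was not tested.

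**Figure D3:**
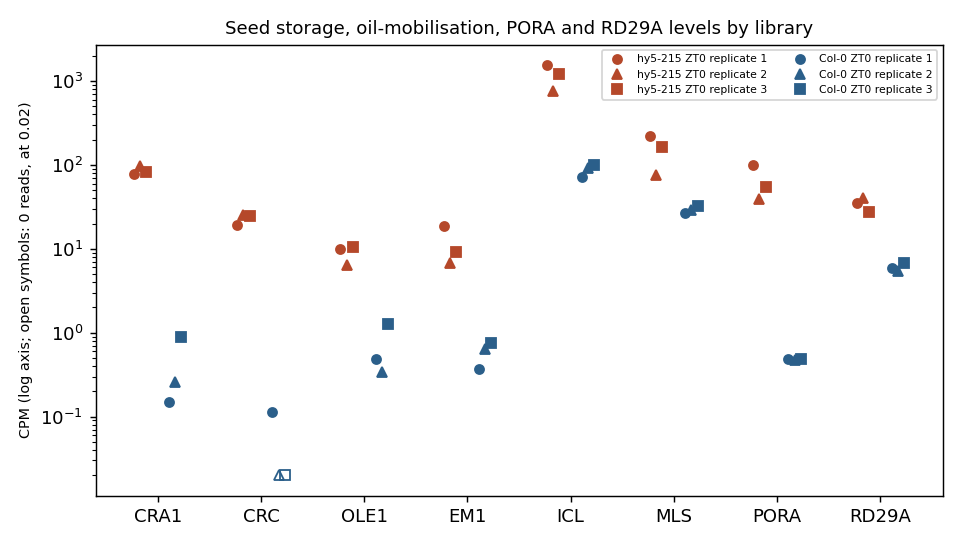
Level in CPM (log axis) of 8 genes in each library at ZT0, with hy5-215 (red) left of Col-0 (blue) for each gene and a symbol for each replicate. Open symbols at 0.02 stand for 0 reads. For all 8 genes the lowest hy5-215 library lies above the highest Col-0 library, by the widest margin for CRA1, CRC and PORA.

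Markers of single tissues passed the test in mixed shares. The lists of root meristem, dividing cells, stomata and root hairs passed near the 39% of all genes, so their counts say nothing particular about them. In RNA of whole seedlings, fewer cells of a type and less RNA per cell cannot be told apart. Of 9 vascular markers 5 rose and none fell, with summed levels of 387.1 to 407.2 CPM in hy5-215 and 298.4 to 309.5 CPM in Col-0. XCP1, a protease of xylem cells, had 32.6 ± 0.999 CPM in hy5-215 and 22.7 ± 1.08 CPM in Col-0 (log2 change 0.53, SE 0.083, edgeR adjusted p = 1.54e-06). Of 13 root meristem and ground-tissue markers 5 rose, 2 without replicate 2 of hy5-215 or replicate 1 of Col-0 and 3 without replicate 3 of Col-0, with sums of 225.2 to 228.4 CPM in hy5-215 and 193.3 to 204.7 CPM in Col-0. Among 12 genes of dividing cells 4 rose, 2 without replicate 1 of Col-0. CDKB2.1, a mitotic kinase, had 15.9 ± 0.832 CPM in hy5-215 and 9.06 ± 0.545 CPM in Col-0 (log2 change 0.81, SE 0.090, edgeR adjusted p = 6.84e-10). On the trichome and epidermis list 2 of 6 rose and 3 fell, and the rises numbered 1 whichever of the 6 libraries was left out. GL2, a homeodomain factor of trichomes and root hairs, had 6.26, 4.67 and 4.62 CPM in hy5-215, against 14, 12.4 and 14 CPM in Col-0 (log2 change −1.37, SE 0.12, edgeR adjusted p = 3.97e-13), and GL1, the MYB factor that starts trichomes, had 0.108, 0.0933 and 0.0863 CPM in hy5-215, against 0.785, 1.12 and 0.558 CPM in Col-0 (log2 change −3.01, SE 0.53, edgeR adjusted p = 1.12e-05). At these levels each hy5-215 library gave only a few reads of GL1. ATML1, a factor of the outer cell layer, rose (log2 change 0.58). Of 6 root hair markers 2 fell, yet the groups overlapped for all 6. The falls numbered 0 without replicate 2 or 3 of hy5-215 or replicate 1 of Col-0, and 1 without replicate 2 or 3 of Col-0. The sum of the 6 was 10.31 to 32.16 CPM in hy5-215 and 18.64 to 22.23 CPM in Col-0. Stomatal markers gave 3 rises and 2 falls of 13, SDD1, a protease that limits stomata, rising most (4.4 ± 0.537 CPM in hy5-215 and 1.51 ± 0.255 CPM in Col-0, log2 change 1.55). Antenna genes of leaves and root meristem markers were both read in every library, and the part of these marker levels in the other results was not tested.

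Outside the lists, genes with the widest changes had varied roles. FAR1 here is fatty acid reductase 1, AT5G22500, and not the phytochrome signalling factor of the same symbol. It had 125, 174 and 155 CPM in hy5-215, against 7.55, 8.27 and 5.29 CPM in Col-0 (log2 change 4.43, SE 0.19, edgeR adjusted p = 2.09e-13). GH9B15, a glycosyl hydrolase, had 18.3, 18.4 and 15 CPM in hy5-215, against 1.08, 0.603 and 0.744 CPM in Col-0 (log2 change 4.39, SE 0.45, edgeR adjusted p = 3.93e-07). Lower were SDR1, a short-chain dehydrogenase, with 3.71, 5.23 and 4.62 CPM in hy5-215, against 21.2, 19.2 and 20.5 CPM in Col-0 (log2 change −2.19, SE 0.099, edgeR adjusted p = 7.09e-22), and CRK21, a receptor-like kinase, with 9.57, 8.77 and 10.4 CPM in hy5-215, against 39.2, 37.4 and 36.5 CPM in Col-0 (log2 change −1.97, SE 0.078, edgeR adjusted p = 3.29e-24). ACD6, an ankyrin protein of cell death and defence, had 0.863, 1.73 and 1.43 CPM in hy5-215, against 15.2, 10.7 and 12.8 CPM in Col-0 (log2 change −3.31, SE 0.29, edgeR adjusted p = 7.77e-09), with a mean of 4.77 CPM in vil1-1. HA8, a proton pump of the plasma membrane family, fell (6.03 ± 0.598 CPM in hy5-215 and 18.2 ± 0.283 CPM in Col-0, log2 change −1.59), as did IGMT3, a methyltransferase (8.23 ± 1.21 CPM in hy5-215 and 28.4 ± 2.5 CPM in Col-0, log2 change −1.80). The largest falls without a symbol were AT4G04410, a pseudogene (0.446 ± 0.25 CPM in hy5-215 and 12.5 ± 1.25 CPM in Col-0, log2 change −4.80), AT2G33850 (0.714 ± 0.116 CPM in hy5-215 and 10.2 ± 1.44 CPM in Col-0, log2 change −3.84) and AT4G07820 (1.18 ± 0.317 CPM in hy5-215 and 9.68 ± 1.37 CPM in Col-0, log2 change −3.07).

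The largest fitted rises were at loci silent in the wild type. Of the genes that were called higher, 222 had 0 reads in all 3 Col-0 ZT0 libraries, and 137 of these had 0 reads in each of the 24 libraries that are not hy5-215. By type, 181 were pseudogenes and 37 coded for proteins, while the test held 384 pseudogenes and 20713 protein-coding genes in all. On chromosome 4 lay 88 of them, and the share of all tested genes on that chromosome is not given here. Those 137 entered the test only through their reads in hy5-215. Some of the others were read in other lines, AT1G25422 most, with 835 reads over the 24 libraries. Being called higher itself required reads in hy5-215, so the number of loci is a description. AT4G07942 had 547, 530 and 568 CPM in hy5-215, against 0, 0 and 0 CPM in Col-0, at least 14050-fold higher than a floor of 3 reads over the Col-0 libraries. AT1G44060 and AT4G03910 were likewise at 0 in Col-0 and at least 9751-fold and 9385-fold higher in hy5-215. Sadhu elements, which are retroelements, were among these loci, with SADHU8-1 at least 897-fold and SADHU3-1 at least 308-fold higher. SADHU6-1 was read in Col-0 at a trace (27.9 ± 0.997 CPM in hy5-215 and 0.0641 ± 0.0416 CPM in Col-0), as were the pseudogene RE2 (11 ± 0.351 CPM in hy5-215 and 0.182 ± 0.0378 CPM in Col-0) and OFP9, a gene of the ovate family (35.1 ± 0.736 CPM in hy5-215 and 0.0268 ± 0.0234 CPM in Col-0, ratio of reads 1352 (95% exact interval 374 to 11170)). The 222 loci took up 0.751 to 0.873% of the reads in genes of hy5-215. Those on chromosome 3 summed to 917.2, 526.3 and 843.2 CPM in replicates 1, 2 and 3, so that replicate 2 was low, while those on chromosome 4 summed to 4038, 3788 and 4097 CPM. When protein-coding genes alone were normalised and tested, 4079 rose and 3923 fell.

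**Figure D4:**
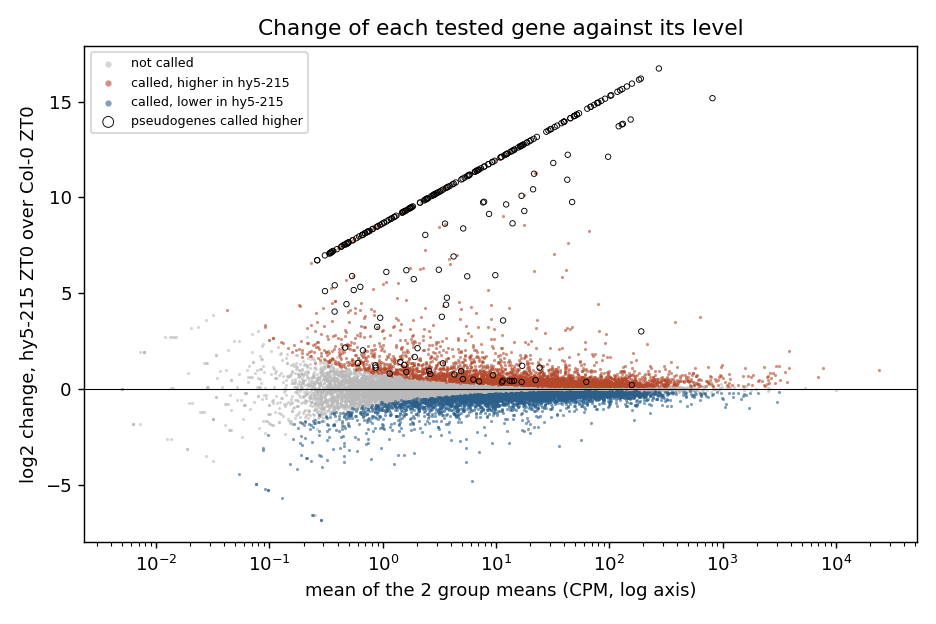
Log2 change, hy5-215 ZT0 over Col-0 ZT0, of each of 21448 tested genes against the mean of the group means in CPM (log axis). Red points are called higher, blue points called lower, grey points not called, and black circles are pseudogenes called higher. The diagonal line of circles at the top is made of loci with 0 reads in Col-0, whose fitted change follows from their level in hy5-215 and is no measure of size.

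The cop1-4 mutant, weakened in the ligase that marks HY5 for degradation, allows a direct contrast. Tested directly, 15707 genes (73.2%) differed between hy5-215 and cop1-4 at ZT0, 7910 higher (36.9%) and 7797 lower (36.4%) in hy5-215. Of the 19 photoprotection genes 18 were lower in hy5-215 than in cop1-4 and none was higher. Of the 43 auxin genes 35 were higher and 3 lower, of the 19 expansin and XTH genes 16 and 3, and of the 29 iron genes 16 and 8. CHS averaged 2.4 CPM in hy5-215 and 219 CPM in cop1-4 (edgeR adjusted p = 1.37e-15). IAA19 averaged 30.2 CPM in hy5-215 and 0.833 CPM in cop1-4 (edgeR adjusted p = 1.98e-22). HYH averaged 13.2 CPM in hy5-215 and 76 CPM in cop1-4 (edgeR adjusted p = 4.12e-28), with 35.3 CPM in Col-0 between them. For these 3 genes the wild type thus lay between the mutants.

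A cop1-4 contrast that shares no library with hy5-215 or Col-0 at ZT0 is the one between vil1-1 cop1-4 and vil1-1. There 14577 genes (68%) passed, 7291 higher (34%) and 7286 lower (34%) in the double mutant. Across the 20713 protein-coding genes the log2 changes of the 2 comparisons had a Pearson's r of −0.063 and a Spearman's rho of −0.087, given as a description over genes, which are not independent replicates. Of genes lower in hy5-215, 45.6% were higher and 31.6% lower in vil1-1 cop1-4 against vil1-1. Of genes higher in hy5-215, 29.4% were higher and 39.9% lower. The opposition thus held for more genes than the reverse, yet across all genes it was weak, and lists differed. All 19 photoprotection genes rose in vil1-1 cop1-4 against vil1-1. The auxin list gave 3 rises and 31 falls of 43 there, against 29 rises and 5 falls in hy5-215. The iron list mostly fell in both, with 19 of 29 lower and 8 higher in vil1-1 cop1-4, and 22 lower and 4 higher in hy5-215. Its members did not all move alike. FRO7, lower in hy5-215, averaged 257 CPM in vil1-1 cop1-4 and 30.1 CPM in vil1-1. The antenna list mostly rose in both, with 25 of 42 higher and 13 lower in vil1-1 cop1-4, and 39 higher and 2 lower in hy5-215. IRT1 averaged 0.294 CPM in vil1-1 cop1-4 and 63.2 CPM in vil1-1, and FER1 averaged 344 CPM in vil1-1 cop1-4 and 45.6 CPM in vil1-1.

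**Figure D5:**
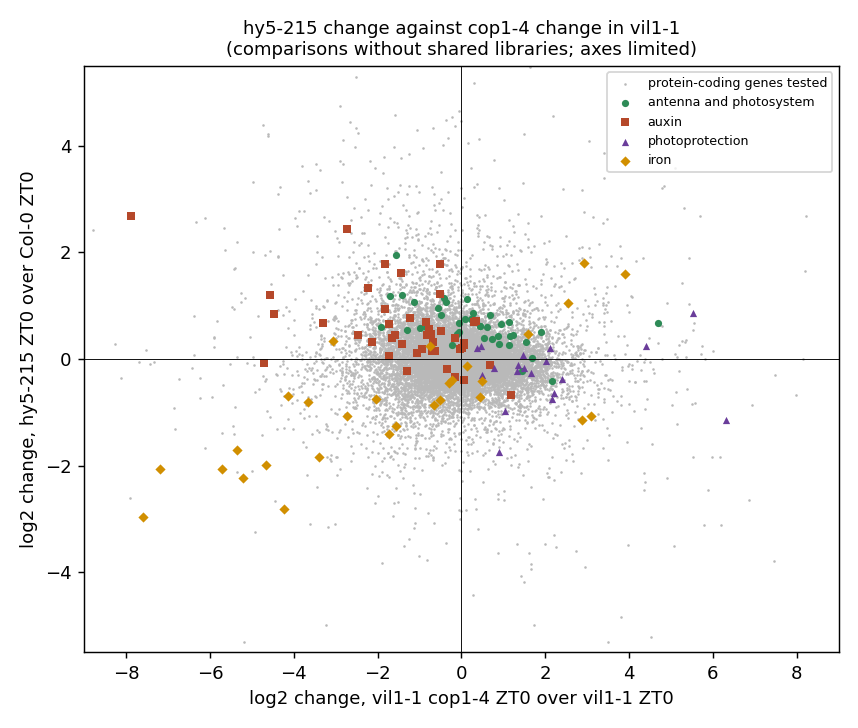
Log2 change of each tested protein-coding gene, hy5-215 ZT0 over Col-0 ZT0 (vertical) against vil1-1 cop1-4 ZT0 over vil1-1 ZT0 (horizontal), with grey points for all genes and coloured symbols for 4 lists. The axes leave out 68 genes. Auxin genes lie mostly at the upper left, photoprotection genes to the right, and iron genes mostly at the lower left.

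Against vil1-1 at ZT0, 8531 genes (39.8%) differed from the same hy5-215 libraries, 4453 higher (20.8%) and 4078 lower (19%). By list, hy5-215 against vil1-1 gave 26 rises and 4 falls of 43 auxin genes, 15 and 0 of 19 expansin and XTH genes, 4 and 18 of 29 iron genes, 3 and 10 of 19 photoprotection genes and 7 and 17 of 34 clock genes. Other lists differed by the line they were set against. The glucosinolate list gave 7 rises and 2 falls against vil1-1, and 1 rise and 7 falls against Col-0. The late anthocyanin list gave 2 and 5 against vil1-1, and 4 and 3 against Col-0. The nitrogen list gave 5 and 6 against vil1-1, and 9 and 3 against Col-0. The carotenoid list gave 5 and 6 against vil1-1, and 6 and 4 against Col-0. The B-box list gave 1 and 6 against vil1-1, and 3 and 4 against Col-0. The low-energy list gave 5 and 2 against vil1-1, and 11 and 2 against Col-0. The Calvin list gave 2 and 2 against vil1-1, and 1 and 7 against Col-0, and the Polycomb list gave 4 and 4 against vil1-1, and 1 and 5 against Col-0. Since hy5-215 libraries enter both comparisons, these counts are not a second measurement of the mutant.

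Reads of overlapping genes limit single values. Some genes, among them GL2, BBX32 and FER4, overlap another on the same strand. The library kit marks strand, but no source used here gives the strand setting of the count. Reads marked ambiguous were set aside, at 0.859 to 0.875% in hy5-215 and 0.958 to 0.964% in Col-0. Values of genes that overlap another on the opposite strand are therefore uncertain, among them CHS, UVR2, BAM3, GL2, FLC, RVE1, PORB, FER1, XTH15, LHCB1.3, BHLH101, SDR1, HA8, FAR1 and GH9B15.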

How the data were processed

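Counts are of reads per gene, deposited by the authors as 1 table per library with 5 closing lines that name no gene, which were left out of library sizes and tests. The submitters' processing notes name the build TAIR10 and the tools STAR, FastQC and edgeR, without versions, and no source used here names the counting step. In the 6 libraries those closing lines held reads outside genes, at 2.16 to 2.89% in hy5-215 and 0.979 to 1.12% in Col-0. They also held reads at several sites, at 4.32 to 5.42% in hy5-215 and 3.18 to 3.54% in Col-0. Reads marked ambiguous made up 0.859 to 0.875% in hy5-215 and 0.958 to 0.964% in Col-0. All 27 libraries (19737975 to 33562745 reads in genes) were fitted together as 9 groups in R 4.3.3 with edgeR 4.0.16 (filterByExpr, TMM normalisation, robust quasi-likelihood fit, 18 residual degrees of freedom), and p-values were adjusted by Benjamini-Hochberg over 21448 genes. Levels in CPM (reads of a gene scaled to a common library size) use TMM-scaled library sizes, and log2 changes and their SE come from that fit. A group at 0 reads is compared with a floor of 3 reads over its 3 libraries, and 1 to 3 reads give a ratio with a 95% exact interval, both for counting error only.

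Genes named were drawn from HY5, HYH and COP1, the 12 largest changes with a symbol and the 3 without one on each side (mean of at least 5 CPM, groups apart), and up to 5 called members of each list on each side by smallest p. CHI, FLS1, F3H, ELIP1, ELIP2, RCA, PIF5, PIF7, TOC1 and CBF2, which did not pass, were added after their values were seen and are given by value. The comparison, the 36 lists and these rules were chosen with earlier results of these data known. Alternatives were DESeq2 1.42.0 size factors and Wald test, no low-count filter, fewer groups in the fit, a replicate block, each library left out, and, added after seeing the data, protein-coding genes alone. Of 32678 gene identifiers, 31912 had a row in the RefSeq table. Promoter windows come from RefSeq's TAIR10.1 sequence.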

Additional observations from a re-analysis of the deposited data

Results flagged for a closer look

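Data outside the gene counts set the hy5-215 libraries apart from the Col-0 libraries at ZT0. Reads that fell outside annotated genes made up 2.49 ± 0.37% of the reads in hy5-215 and 1.05 ± 0.07% in Col-0 (SD, n = 3 each), and the highest of the 24 libraries that are not hy5-215 reached 1.12%. Reads placed at several sites made up 4.79 ± 0.57% in hy5-215 and 3.38 ± 0.18% in Col-0, with 4.35% as the highest of the other 24. The lowest hy5-215 library was above the highest Col-0 library in both measures.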

How the results depend on the processing

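No alternative moved the number of changed genes beyond 1.5 times, or turned round the direction of any named gene. Between hy5-215 and Col-0 the number of changed genes was 8337 with DESeq2 size factors, 8365 without a filter on low counts, 8089 with DESeq2's Wald test, 8494 with the compared groups alone and 8322 with the ZT0 groups alone. Leaving out single libraries gave 7298 to 7552. Same-numbered libraries did not deviate together (r of −0.109, 0.000538 and −0.0733 for numbers 1, 2 and 3), so there was no sign that the numbers pair them. With 3 libraries in each group a pairing could be missed. With the replicate block 8264 genes passed. Of 271 named genes, 2 lost their call with DESeq2 size factors, 4 with the Wald test, 5 with the replicate block, 9 without the filter, and 19 to 32 with a library left out. With the compared groups alone 10 of 266 did so. The median log2 change of all genes stayed between 0 and 0.009 over these settings. Genes near the detection limit, such as F3H and DFR, were read too thinly for firm statements.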
